A study of Mus musculus with 8 samples.

Results

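The data were gene expression profiles of benign mouse skin tumours (papillomas) in which the transcription factor NR2F2 was overexpressed, set against control papillomas. The comparison used 4 of the series' 8 Affymetrix arrays: 2 of papillomas with the genotype label NR2F2 GOF (gain of function, the overexpression group) and 2 of papillomas labelled NR2F2 WT, titled as the GOF controls. The 4 arrays were chosen by their titles, and the 4 carcinoma arrays of the series were left aside. All the tumour cells had been sorted for the epithelial surface protein Epcam before total RNA was extracted. The labels give no strain, age, promoter or Cre driver for the overexpression, and nothing in them ties an array to an animal. The p-values therefore rest on how far these arrays differ within a group. The female transcript Xist was high on control replicate 1 (log2 8.56) and GOF replicate 2 (8.05) and low on the others (3.35 and 2.88). The Y-linked gene Eif2s3y showed the reverse, so the 2 arrays of each group held different RNA.

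NR2F2, also called COUP-TFII, is an orphan nuclear receptor: it has the DNA-binding and ligand-binding domains of the steroid and retinoid receptors, but its physiological ligand is not settled. It binds DNA as a dimer at direct repeats of the hexamer AGGTCA, can occupy the sites of retinoid and other nuclear receptors, and is best known for its part in venous identity, in lymphatic vessels and in mesenchymal organs. The epidermis, from which papillomas arise, renews from basal keratinocytes that carry keratins 5 and 14 and hold the basement membrane through hemidesmosomes. Their daughters move up, switch to other keratins and end as cornified cells sealed by lipids and by the small proteins of the cornified envelope. The question was which genes differed when NR2F2 was present at a high level in such a tumour.

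Values are log2 RMA values, so 1 unit is a 2-fold difference. The medians of all probe sets lay between 3.12 and 3.16 on the 4 arrays, and the highest of the 44 control probe sets for non-mouse sequence, taken here as background, lay between 3.09 and 3.33. The share of single-gene probe sets above it ran from 50.9% to 59.8%. Added hybridisation spikes averaged 10.22 and 10.09 in control papilloma, and 9.75 and 9.88 in GOF papilloma. Over all probe sets the 2 controls correlated at 0.981, the 2 GOF arrays at 0.991, and arrays of different groups at 0.970 to 0.978. Basal keratins checked the tissue: Krt5 stood at 12.35 and 12.42 in the controls and 12.47 and 12.37 in GOF, and Krt14 at 12.09 and 12.03 against 12.13 and 12.02.

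Nr2f2 itself matched the labels on its brightest probe set, the one that stands for the gene here. That probe set read 2.80 and 2.55 in the controls, below background, and 11.43 and 11.47 in GOF. The group means differed by 8.78 on the log2 scale (SE 0.17, limma adjusted p = 0.000394), and against the background of the control arrays, in place of their values below it, GOF was at least 321-fold higher. The 2 GOF arrays were nearly equal and far above both controls. The other 3 Nr2f2 probe sets stayed low. A second went from 3.18 and 2.93 to 4.24 and 3.79 without passing the threshold (limma adjusted p over probe sets = 0.119), and the remaining ones differed by 0.26 and -0.04 with all 4 arrays at background. The mean of the 4 probe sets differed by 2.49. Which part of the transcript each probe set reads was not examined here. Of the related receptors, Nr2f1 was at background, and Nr2f6 was measured at 7.80 and 7.05 in controls and 7.64 and 7.49 in GOF (log2 fold change 0.14).

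Of 10869 genes tested, 229 (2.11%) passed limma's Benjamini-Hochberg adjusted p of 0.05. Of these, 144 (1.32%) were higher and 85 (0.782%) lower in GOF papilloma. The genes that rose were mostly faint in the controls, with a median control level of 3.87, and 19 of them had both control arrays at or below background. Those that fell started from a median of 7.38, against 5.14 for all genes tested. A second, descriptive rule asked for at least a 1.5-fold difference in the same direction in all 4 pairs of 1 GOF and 1 control array. It held for 560 genes higher (5.15%) and 319 lower (2.93%), among them all 229 that passed limma. Where a gene is said below to meet the array-pair rule, this is the rule meant, and it is not a test. The median log2 fold change of all genes was 0.04. The count of calls depended on which array was left out: without GOF replicate 2 only Nr2f2 remained past the threshold, without GOF replicate 1 it was 37 genes, and without control replicate 1 or 2 it was 953 or 375. Of the 72 other named genes past the threshold, none kept its call without GOF replicate 2 and 23 did without GOF replicate 1, and none changed direction.

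**Figure D1:**
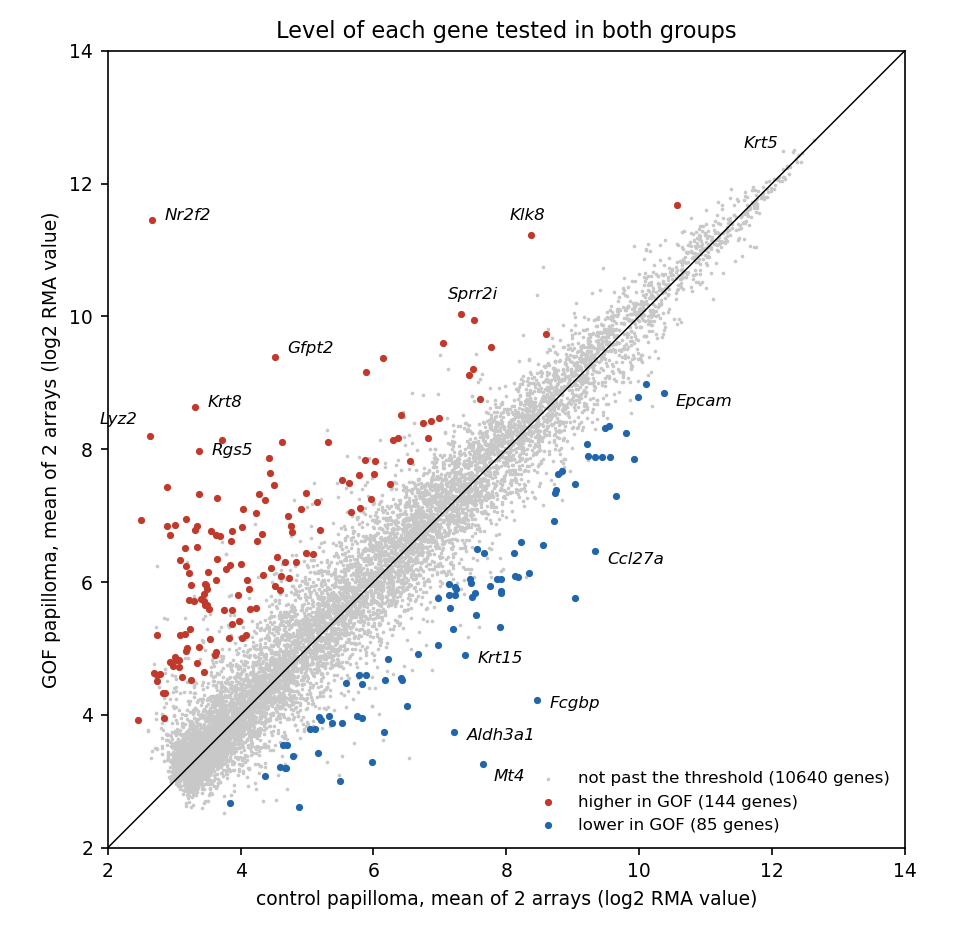
Each point is a gene tested, placed by its mean log2 RMA value on the 2 control papilloma arrays (x axis) and on the 2 GOF papilloma arrays (y axis), and the line marks equal levels. The 144 red genes lie above the line, mostly at its faint end, the 85 blue genes lie below it, and Nr2f2 is the gene farthest from it, at 11.45 against 2.67.

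After Nr2f2, the largest rises were in Lyz2, the lysozyme gene of macrophages and neutrophils, and in Krt8, a keratin of simple epithelia. Lyz2 went from 2.98 and 2.29 to 7.85 and 8.54, at least 33.6-fold. Krt8 went from 3.29 and 3.34 to 8.38 and 8.89, 40.0-fold (log2 fold change 5.32, SE 0.22, limma adjusted p = 0.00951). No GOF array came near a control array for either gene. Gfpt2, which makes the first committed step from fructose 6-phosphate into the hexosamine pathway, stood at 5.11 and 3.93 in the controls and 9.29 and 9.47 in GOF (29.1-fold). Rgs5, a regulator of G protein signalling typical of pericytes, stood at 3.23 and 3.52 against 8.33 and 7.62 (24.2-fold), although its 4 probe sets ranged from 0.93 to 4.60 in log2 fold change.

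The largest fall was in Mt4, the metallothionein of stratified squamous epithelium, which went from 7.91 and 7.40 to 3.35 and 3.17 (21.0-fold lower). Fcgbp, a mucus-associated protein that binds immunoglobulin G Fc, fell from 8.39 and 8.52 to 4.57 and 3.90 (18.7-fold). Aldh3a1, an aldehyde dehydrogenase of epithelia that the aryl hydrocarbon receptor can induce, fell from 6.99 and 7.45 to 3.65 and 3.85 (11.1-fold). Mt4 came down to about background (3.33 and 3.13 on the GOF arrays), while Fcgbp and Aldh3a1 stayed above it on both. Baiap2l1, which links membranes to actin, fell from 9.10 and 8.97 to 5.81 and 5.72 (9.67-fold). Cblb, a ubiquitin ligase that restrains receptor signalling, fell from 7.92 and 7.90 to 5.35 and 5.31 (5.97-fold) and was nearly equal within each group. Its other probe set differed by -1.28 in log2 fold change. Further falls of named genes were in Samd5 (6.44-fold), the potassium channel gene Kcnh1 (5.34-fold), the exchange factor gene Ralgds (4.29-fold), the phosphatase gene Acpp (4.23-fold) and the zinc finger gene Bnc2 (4.13-fold), each past the limma threshold. The other probe sets of Samd5 and Bnc2 differed by -0.28 and -0.60 in log2 fold change.

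**Figure D2:**
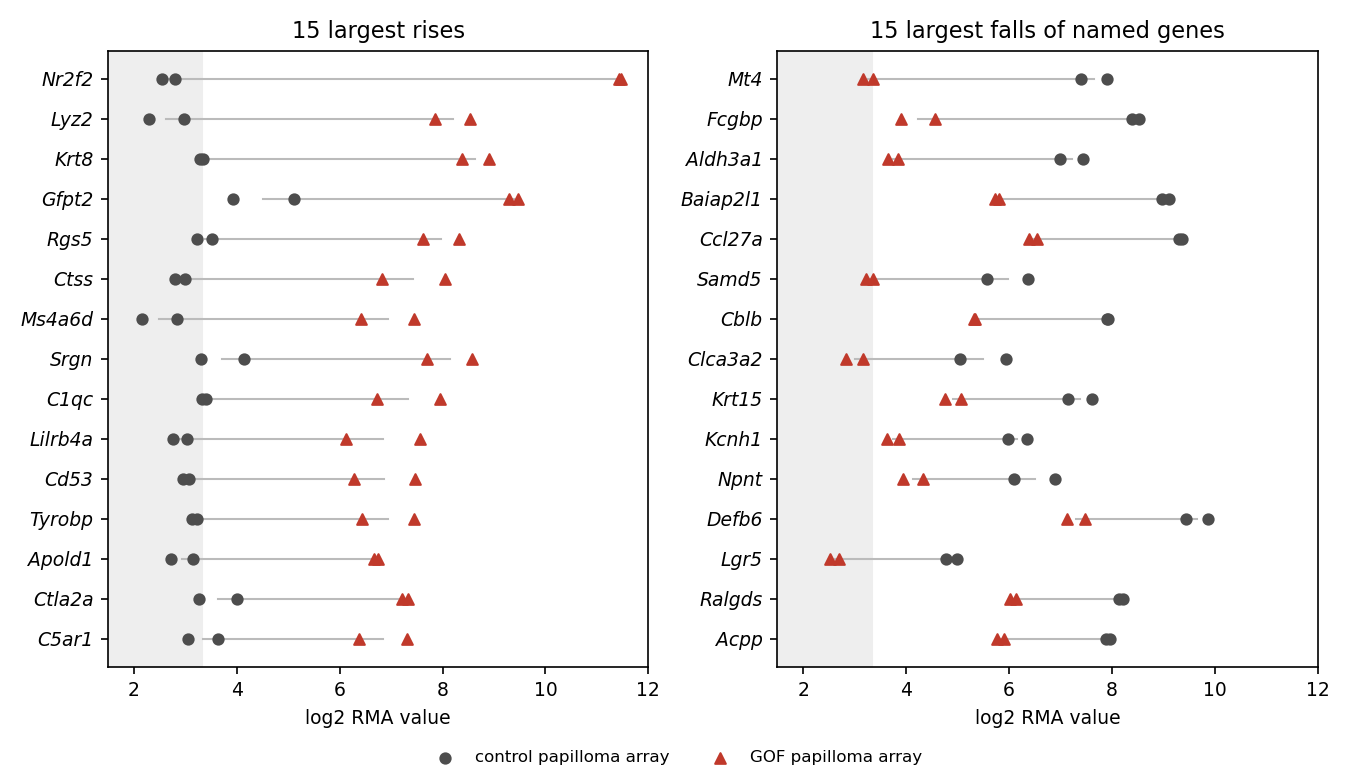
The log2 RMA values of single arrays are shown for the 15 genes with the largest rises and the 15 with the largest falls past the limma threshold (gene names made only of clone numbers left out); circles are control arrays, triangles GOF arrays, lines join the group means, and grey marks values up to the highest array background, 3.33. In every gene shown the 2 groups stand apart, and most of the genes that rose start in the grey range.

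The pair of keratins that marks simple epithelium rose. Krt8 and Krt18 encode the 2 partner keratins of single-layered epithelia, which keratinocytes of normal epidermis do not make, and both passed the threshold. Krt18 went from 4.84 and 4.69 to 6.97 and 6.71 (4.21-fold, limma adjusted p = 0.0201), and both Krt8 probe sets rose (4.98 and 5.32). The other keratins listed with them did not follow. Krt7, close to background, stood at 3.38 and 3.50 against 3.11 and 3.08, and Krt19 and Krt20 were at background. Krt80, placed in the same list, stood at 4.75 and 5.82 against 4.31 and 4.46. Krt8 and Krt18 are neighbours on chromosome 15, with annotated starts 23874 bases apart. Their promoters are shown because the pair moved together and because NR2F2 is a receptor of the AGGTCA class. The sequences are RefSeq's, build GRCm38.p6, from 250 bases before to 50 bases after the annotated start, at chr15:102004293-102004592 (minus strand) and chr15:102027966-102028265 (plus strand). Each held the letters AGGTCA, printed in capitals, a single time, starting at -225 in Krt8 and -108 in Krt18.
Krt8: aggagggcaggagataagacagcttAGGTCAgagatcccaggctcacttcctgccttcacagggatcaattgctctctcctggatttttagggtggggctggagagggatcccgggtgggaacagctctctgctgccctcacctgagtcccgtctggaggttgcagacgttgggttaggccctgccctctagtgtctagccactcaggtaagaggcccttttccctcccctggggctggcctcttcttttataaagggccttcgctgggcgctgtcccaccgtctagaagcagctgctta
Krt18: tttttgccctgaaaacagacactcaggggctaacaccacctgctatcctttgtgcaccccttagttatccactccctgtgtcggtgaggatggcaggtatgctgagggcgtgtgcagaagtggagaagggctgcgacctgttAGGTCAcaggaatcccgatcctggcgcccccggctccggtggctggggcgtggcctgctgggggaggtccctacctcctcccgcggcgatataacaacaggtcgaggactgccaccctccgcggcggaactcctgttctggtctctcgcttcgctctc

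The share of promoters with the hexamer is given as a description, with no test. AGGTCA, on either strand, occurred in 16.3% of all 32851 RefSeq promoters of this length and in 12.95% of the 11116 that belong to genes tested. It occurred in 23 of 140 promoters of the genes that rose (16.4%; 106 of the 144 genes had a promoter in the table) and in 19 of 105 of those that fell (18.1%; 72 of 85 genes). Repeats of AGGTCA in the same orientation with 1 base between them were in 0.04% of all promoters and in none of either group. The next count is per gene, over any of its promoters, and cannot be set beside the shares of promoters above. It leaves out chromosome 18, which holds Lama3, Dsg1b and Cd74. Of the 55 other named genes past the threshold with a promoter in the table, 17 had the hexamer in at least 1. It was absent from those of Nr2f2, Lyz2, Gfpt2, Rgs5, Mt4, Fcgbp and Baiap2l1, among the largest changes, while the 5 promoters printed here all hold it. A gene can have several annotated starts, and a match says only that these letters are in the window.

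Some genes of the basal layer and its anchorage fell, while Krt5 and Krt14 were nearly equal in both groups. Of 14 members tested, 4 fell past the limma threshold (against 0.782% of all genes) and none rose, and the median log2 fold change of the list was -0.54 (0.04 for all genes). Krt15, a keratin of basal and hair follicle stem cells, went from 7.15 and 7.61 to 5.07 and 4.75 (5.55-fold lower). Dst, whose epithelial isoform joins keratin filaments to the hemidesmosome, fell from 9.82 and 9.29 to 7.78 and 7.99 (3.19-fold). Lamb3 and Lama3 encode chains of the epidermal laminin that this junction binds. Lamb3 fell from 9.32 and 9.14 to 8.02 and 7.77, and Lama3 from 9.99 and 9.98 to 8.77 and 8.82. In all 4 genes the highest GOF array lay below the lowest control array, as it did in 22.7% of all genes tested. For Lama3 and Dst, however, other probe sets of the gene differed by as little as 0.08 and -0.04. Col17a1, the transmembrane collagen of the hemidesmosome, was 10.11 and 10.29 against 8.99 and 8.31 (limma adjusted p = 0.0668). Trp63, the master regulator of stratified epithelium, was 10.18 and 9.98 against 9.64 and 9.77 and did not pass. Epcam, the antigen of the sort, fell from 10.17 and 10.57 to 9.0 and 8.68 (2.88-fold, limma adjusted p = 0.0475), while the classical cadherin Cdh1 was 8.18 and 8.77 against 8.28 and 8.24. Npnt, a basement membrane ligand of integrin alpha-8, fell from 6.10 and 6.90 to 4.34 and 3.94, with its 5 probe sets ranging from -2.37 to -0.22 in log2 fold change.

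Of 21 hair follicle genes tested, 17 had a negative log2 fold change. Of the 21, 1 rose and 1 fell past the limma threshold (1.32% and 0.782% of all genes). By the array-pair rule 2 were higher and 6 lower (5.15% and 2.93% of all genes), and the median was -0.52. Lgr5, a receptor for R-spondins and a marker of follicle stem cells, fell from 4.98 and 4.79 to below background, 2.71 and 2.53 (at least 3.15-fold; its second probe set differed by -0.14). S100a3, a calcium-binding protein of the hair cuticle, rose from 4.73 and 5.89 to 8.08 and 8.15 (6.96-fold). Of the inner root sheath keratins, none passed limma, and Krt25 (5.69 and 7.37 against 3.12 and 3.58), Krt71 (5.31 and 6.99 against 3.69 and 3.57) and Krt73 (3.56 and 5.49 against 2.81 and 2.63) met the array-pair rule. Krt27 (3.44 and 5.03 against 2.99 and 2.79) did not, and Krt26 was at background. Control replicate 2 was the higher control for each of the 4 tested. Cd200, a surface protein of bulge cells, was 8.08 and 6.97 against 5.35 and 5.70, and Cd34, carried by bulge cells and by blood vessels, was 5.18 and 4.05 against 6.26 and 6.11. Sebaceous gland and lipid synthesis genes gave no limma call among 15 tested, 1 higher and 3 lower by the array-pair rule and a median of -0.48. Their lower members, Fa2h (6.80 and 8.05 against 4.25 and 6.10), Far2 (7.54 and 9.06 against 5.26 and 6.91) and Cidea (4.55 and 5.47 against 3.85 and 3.95), are lipid genes of that gland.

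Some late differentiation genes rose. Of 29 cornified envelope and differentiation genes tested, 3 rose past the limma threshold (1.32% of all genes) and none fell. By the array-pair rule 7 were higher (5.15% of all genes), and the median was 0.52. Lce3a and Lce1d encode late cornified envelope proteins. Lce3a went from 3.91 and 5.35 to 7.85 and 8.35 (11.1-fold), and Lce1d from 3.84 and 5.05 to 7.42 and 7.87 (9.22-fold). Sprr2i, a small proline-rich protein, went from 7.20 and 7.42 to 9.88 and 10.21 (6.64-fold), and Sprr2k was 6.98 and 5.93 against 8.51 and 8.47 without passing. These families have near-identical copies, so single probe sets may read more than 1 gene. Loricrin (Lor), the main envelope protein, was 4.82 and 5.61 against 6.88 and 7.62 (limma adjusted p = 0.0722). Filaggrin (Flg) was 3.60 and 5.21 against 3.24 and 3.82, and involucrin (Ivl) 6.92 and 5.89 against 6.13 and 8.03, in both cases with overlapping groups. The early suprabasal keratins were not higher: Krt1 was 11.28 and 11.24 against 10.38 and 10.91, and Krt10 11.65 and 11.51 against 10.90 and 11.42. None of the 8 suprabasal and stress keratins tested passed limma or the array-pair rule, and their median was 0.09.

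Some lipid barrier genes rose as well. Of 16 tested, 3 rose (1.32% of all genes), none fell, 6 were higher by the array-pair rule (5.15% of all genes) and the median was 0.47. Sdr9c7, a dehydrogenase needed to bind ceramides to the envelope, went from 4.16 and 4.69 to 8.04 and 7.70 (10.9-fold). Cers3, the synthase of very long chain ceramides, went from 4.68 and 5.0 to 6.35 and 6.27 (2.77-fold), and Dgat2, a triglyceride synthase, from 7.62 and 7.60 to 8.68 and 8.84 (2.22-fold). Alox12b, the lipoxygenase of the same route, was 3.97 and 6.23 against 7.27 and 7.71 and did not pass, control replicate 1 being far below control replicate 2.

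Among serpins and serine proteases, 2 of 22 rose past limma (against 1.32% of all genes) and none fell. By the array-pair rule 7 were higher (5.15% of all genes), and the median was 0.10. Klk8, a kallikrein that takes part in shedding of the cornified layer, went from 7.97 and 8.77 to 11.25 and 11.21 (7.27-fold). Tmprss11e, a membrane serine protease, went from 3.49 on both controls to 6.03 and 5.78 (5.32-fold). Klk6 (6.31 and 7.68 against 9.42 and 9.43) and Prss8, the prostasin gene (3.59 and 3.28 against 5.41 and 4.82), met the array-pair rule only. Desmosome genes gave 1 rise past limma in 12 (1.32% of all genes) and a median of 0.11. It was Dsg1b, a desmoglein of upper layers, which went from 4.88 and 4.46 to 6.31 and 6.30 (3.11-fold). Dsg1a was 5.55 and 6.05 against 6.99 and 7.16 and Dsc2 6.70 and 5.51 against 8.12 and 8.17, while Dsg2, the desmoglein of basal and simple cells, was 7.72 and 7.95 against 6.90 and 6.53, and none of these 3 passed limma. Adherens and tight junction genes gave no call among 16 by either rule, with a median of -0.06. The antimicrobial and secretory list was mixed, with 1 rise and 3 falls in 26 (1.32% and 0.782% of all genes) and a median of 0.13. In it Slpi, the secretory leukocyte protease inhibitor, rose from 10.60 and 10.55 to 11.71 and 11.66. Defb6, a defensin, fell from 9.44 and 9.86 to 7.13 and 7.48 (5.1-fold), and Clca3a2, a chloride channel accessory protein, fell from 5.05 and 5.93 to 3.17 and 2.83 (at least 4.79-fold).

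**Figure D3:**
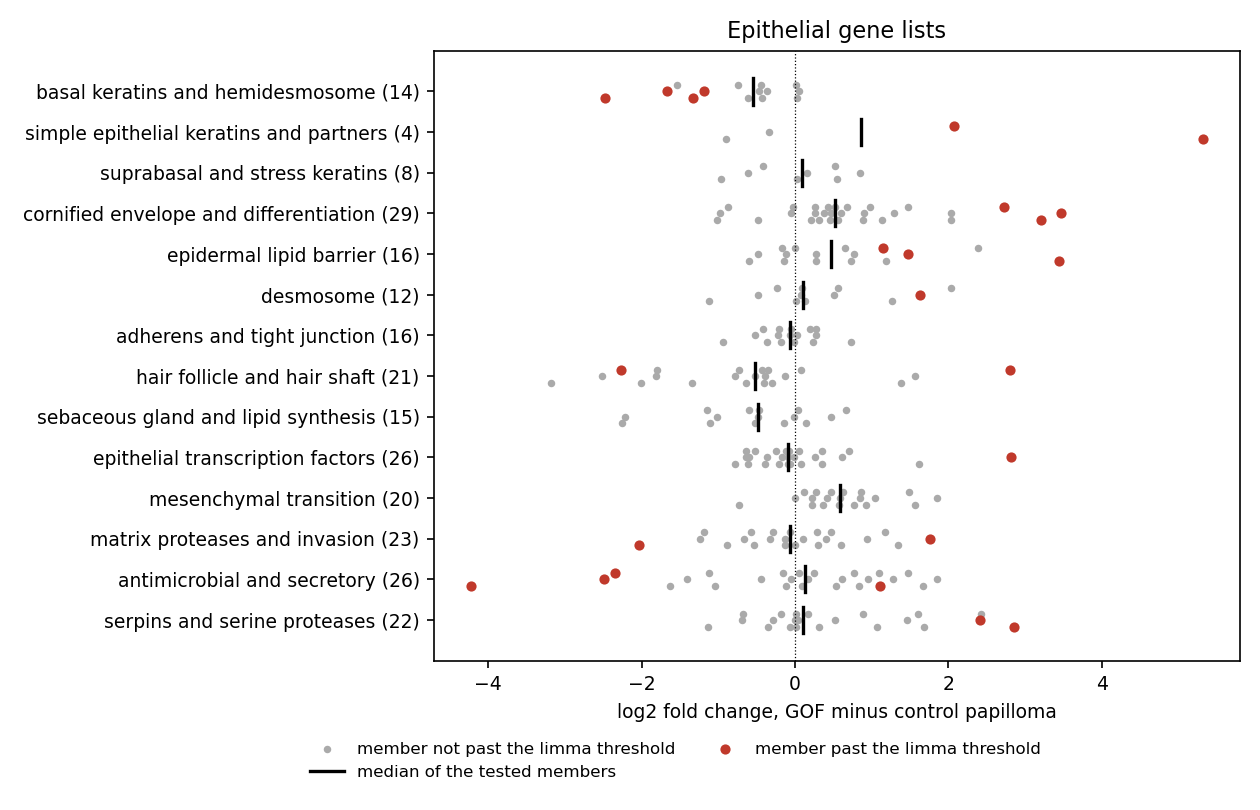
Each dot is a tested member of an epithelial gene list, placed by its log2 fold change (GOF minus control papilloma); red dots passed the limma threshold, the bar is the median, and the number of tested members stands after each list's name. Red dots lie below 0 in the basal list, whose median is -0.54, and above 0 in the cornified envelope, lipid barrier and serine protease lists.

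Of 26 epithelial transcription factors tested, 1 rose past limma (1.32% of all genes), none fell, and the median was -0.09. The gene that rose was Pitx1, a homeodomain factor of squamous epithelium and hindlimb, which went from 4.58 and 3.46 to 7.09 and 6.58 (7.03-fold, limma adjusted p = 0.0475; its other probe set differed by 0.77). Elf3, an epithelial ETS factor, was 6.45 and 5.91 against 8.06 and 7.54, and Gata3, a factor of the inner root sheath, 5.56 and 5.70 against 4.96 and 4.75, both by the array-pair rule alone. Mesenchymal transition genes gave no limma call among 20 tested (4 higher and 1 lower at an unadjusted p under 0.05, against 12.8% and 8.08% of all genes). By the array-pair rule 3 were higher (5.15% of all genes), and the median was 0.59. In that list Snai1, a repressor of cadherin transcription, was 3.52 and 2.51 against 4.69 and 4.48, and vimentin (Vim) was 9.58 and 7.34 against 10.21 and 10.43. Control replicate 2 was the lower control in 14 of the 20, and fibroblast markers were lower on that array too, as given with the other cell types. The part of other cells in these values was not tested.

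Matrix proteases split. Of 23 genes of matrix proteolysis and invasion, 1 rose and 1 fell past limma (1.32% and 0.782% of all genes). By the array-pair rule 4 were higher and 3 lower (5.15% and 2.93% of all genes), and the median was -0.07. Mmp9, the gelatinase of invading cells and of leukocytes, rose from 7.65 and 7.90 to 9.71 and 9.37 (3.40-fold, both probe sets). Mmp3, a stromelysin, fell from 7.75 and 8.52 to 6.18 and 6.01 (4.10-fold). The collagenase Mmp13 was 8.53 and 8.90 against 7.51 and 7.44 and the inhibitor Timp3 7.08 and 7.62 against 8.56 and 8.48, neither past limma. The groups did not overlap for any of the 4, as was so for 30.1% of all genes in the higher direction and 22.7% in the lower.

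Among growth factor pathway genes 1 receptor and 1 feedback inhibitor fell, against 0.782% of all genes. Fgfr2, the receptor for the keratinocyte growth factors, fell from 8.10 and 7.62 to 6.12 and 5.96 (3.53-fold, limma adjusted p = 0.0339), though its 3 probe sets ranged from -1.82 to -0.05. In the Hedgehog and FGF list this was the only call among 13 (median -0.03). Fgfr1 was 8.41 and 8.79 against 7.62 and 7.68 and the ligand gene Fgf18 4.65 and 4.96 against 5.85 and 5.80. The 3 Fgfr1 probe sets ranged from -0.95 to -0.27 in log2 fold change. Spred2, an inhibitor of the Ras and MAPK cascade, fell from 7.10 and 6.85 to 5.78 and 5.74 (2.32-fold; its 5 probe sets ranged from -1.21 to -0.01 in log2 fold change), the only call among 22 EGFR and MAPK genes (median -0.29). Lrig1, a brake on EGFR and a stem cell marker of the upper follicle, was 6.86 and 7.73 against 5.42 and 5.29 (limma adjusted p = 0.0585). Dusp4, a MAPK phosphatase, was on the other side, 5.72 and 6.54 against 7.29 and 7.34.

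In the Wnt list, Lgr5 was the 1 fall past limma among 23 tested (0.782% of all genes), with none higher and a median of -0.35. The inhibitors Apcdd1 (7.57 and 7.06 against 6.15 and 5.65) and Sfrp1 (6.38 and 6.98 against 5.14 and 5.34) and the receptor Fzd7 (4.98 and 4.94 against 4.28 and 3.24) met the array-pair rule, while the ligand Wnt4 was 7.66 and 7.72 against 8.71 and 8.43. The other Fzd7 probe set differed by -0.15 in log2 fold change. Sema3c, a secreted guidance ligand, fell from 7.34 and 7.11 to 6.08 and 5.79 (2.45-fold), the only call among 20 vessel and guidance ligands (median -0.22). The ephrin ligands Efna1 (7.87 and 7.60 against 6.69 and 6.35) and Efnb2 (8.05 and 8.47 against 7.11 and 7.35) were lower by the array-pair rule. Vegfa, the main angiogenic ligand, was 8.35 and 7.96 against 8.31 and 8.28. TGF-beta and BMP genes gave no limma call among 27 (median -0.33, 7 lower at an unadjusted p under 0.05, against 8.08% of all genes), with the receptor Tgfbr1 at 5.03 and 5.47 against 3.99 and 4.24. The 3 Tgfbr1 probe sets ranged from -1.14 to 0.05 in log2 fold change. Notch genes gave no limma call among 15 (median 0.01), with the ligand Jag1 at 9.86 and 9.66 against 9.01 on both GOF arrays.

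Besides Nr2f2, 1 of the 25 nuclear receptors tested passed the limma threshold, downward (0.782% of all genes). Nr1d2 (REV-ERB beta), a repressor of the circadian clock, fell from 7.04 and 7.23 to 5.72 and 5.89 (2.51-fold). Rora, which competes with it for the same sites, was 8.69 and 8.67 against 7.29 and 7.80, and the vitamin D receptor Vdr 7.97 and 7.92 against 6.98 and 7.17, both by the array-pair rule. The 5 Rora probe sets ranged from -1.24 to -0.09 in log2 fold change. Retinoid genes gave no call among 15 (median 0.22): the binding protein Crabp2 was 10.24 and 9.97 against 10.86 and 11.16 and the dehydrogenase Rdh12 6.11 and 5.56 against 7.14 and 6.97.

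In metabolism, calls were few. Gfpt2 was the only call among 20 hexosamine and mucin glycosylation genes (median 0.16). Of later steps in that route, Pgm3 (4.14 and 4.10 against 5.15 and 4.82) met the array-pair rule, although its other probe set differed by -0.21. So did Cmas (7.56 and 7.61 against 8.30 and 8.46). Gcnt2, a branching transferase, was 6.14 and 5.81 against 3.75 and 4.53. Its 4 probe sets ranged from -1.84 to 0.05 in log2 fold change. Of 25 glycolysis and hypoxia genes, 2 rose past limma (against 1.32% of all genes) and none fell. By the array-pair rule 6 were higher (5.15% of all genes), and the median was 0.32. Slc16a3, the lactate exporter MCT4, rose from 6.31 and 6.27 to 8.41 and 7.86 (3.59-fold), and Egln3, a prolyl hydroxylase induced in hypoxia, from 6.47 and 6.62 to 7.90 and 7.73 (2.42-fold). The phosphofructokinase Pfkl (8.69 and 8.58 against 9.97 and 9.64) and the aldolase Aldoc (4.14 and 3.84 against 5.59 and 5.19) did not pass. The lowest log2 fold change among the probe sets of each gene was -0.11 for Pfkl and -0.05 for Aldoc. Slc38a1, a glutamine transporter, rose from 3.15 and 3.29 to 5.69 and 5.76 (5.69-fold; 0.76 in log2 fold change on its other probe set), the only call among 23 amino acid genes (median -0.15).

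Aldh3a1, a fall (0.782% of all genes), was the only call among 21 NRF2 and AhR targets (median 0.20). In that list Gsta2, a glutathione transferase, was 7.25 and 8.02 against 9.07 and 9.19. Mt4 was the only call among 12 metal-handling genes (median -0.12), with Mt1 at a mean of 11.76 in the controls and 11.05 in GOF. Neither the 15 cholesterol genes (median 0.24) nor the 29 oxidative phosphorylation genes (median 0.19, 27 of them positive) gave a limma call. Nsdhl and Dhcr7 of sterol synthesis were 7.33 and 7.11 against 8.21 and 8.34, and 8.95 and 8.66 against 9.72 and 9.57, and Sdha of the respiratory chain was 8.48 and 8.03 against 9.12 and 9.08. The 4 Sdha probe sets ranged from -0.04 to 0.85 in log2 fold change.

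Cell cycle genes were a little higher in GOF without any passing. The mean of the 34 G2 and mitosis genes tested was 4.87 and 5.26 on the controls and 5.77 and 5.56 on the GOF arrays. All 34 had a positive log2 fold change, with a median of 0.60 (0.04 for all genes). By the array-pair rule 5 were higher (5.15% of all genes). None passed limma's adjusted threshold, although 15 had an unadjusted p under 0.05 (12.8% of all genes were higher at that level). Cdc20, the activator of the anaphase-promoting complex, was 6.06 and 6.67 against 8.19 and 7.49, and Ttk, a kinase of the spindle checkpoint, 3.61 and 3.70 against 4.67 and 4.55. The other Ttk probe set differed by 0.21 in log2 fold change. Of 40 S phase genes, 34 were positive, 17 were higher at an unadjusted p under 0.05 (12.8% of all genes) and 3 by the array-pair rule (5.15% of all genes), with a median of 0.47. Among the last was the ribonucleotide reductase subunit Rrm1 (6.97 and 7.03 against 8.06 and 7.76). The p53 target and cell cycle inhibitor list gave no call among 22 (median 0.11), with Trp53inp1 at 7.29 and 7.65 against 6.11 and 6.27 and Cdkn1c at 4.63 and 4.26 against 5.41 and 5.39. Members of such a list vary together from sample to sample, so a count of signs over them is a description of these 4 arrays.

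Signs of sample handling were compared too. Immediate early and dissociation stress genes gave no limma call among 26, with a median of -0.19. By the array-pair rule 4 were lower (2.93% of all genes). At a limma unadjusted p under 0.05, none were higher and 6 were lower (12.8% and 8.08% of all genes). Atf3 was 10.20 and 10.08 against 9.30 and 8.95, and Egr1 11.76 and 11.71 against 11.02 and 11.08. The 20 cytosolic ribosomal protein genes gave no call by either rule (median -0.08).

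**Figure D4:**
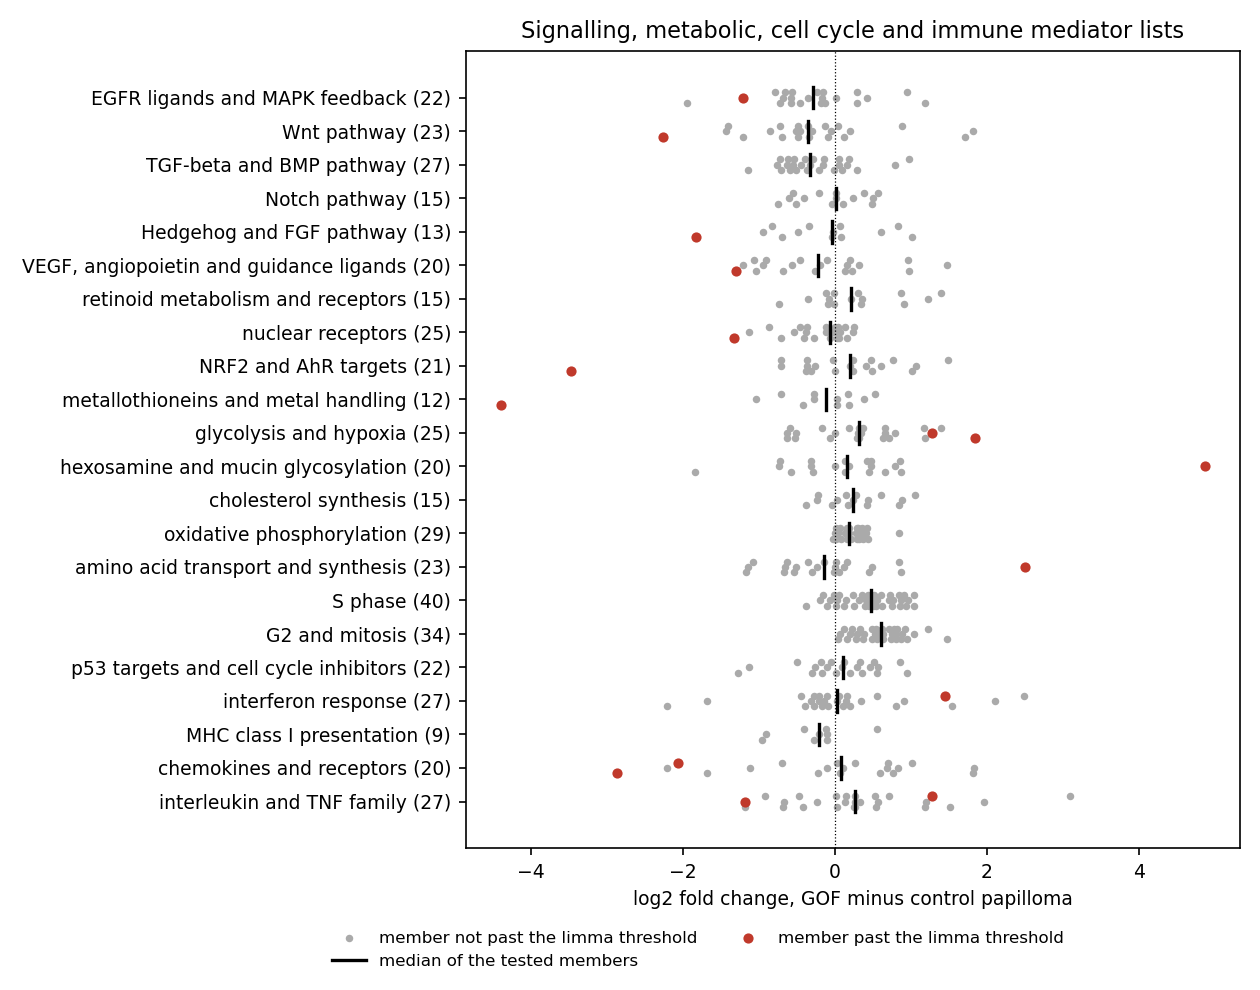
Each dot is a tested member of a signalling, metabolic, cell cycle or immune mediator list, placed by its log2 fold change (GOF minus control papilloma), with red for members past the limma threshold and a bar for the list's median; Nr2f2 itself, at 8.78, is left out of the drawing but counted in the 25 nuclear receptors. Red dots are few in each list. Gfpt2 at 4.86 and Mt4 at -4.39 lie far from their list's median, and the G2 and mitosis dots all lie above 0 with none red.

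In GOF papilloma 2 chemokines made by keratinocytes fell, and a B cell chemokine rose. Ccl27a, the skin chemokine that draws T cells through CCR10, went from 9.37 and 9.31 to 6.39 and 6.55 (7.31-fold lower, limma adjusted p = 0.0119). Its 4 probe sets ranged from -2.87 to -0.19, and the gene has near-identical copies in the mouse genome. Cxcl14, an epithelial chemokine, fell from 9.82 and 10.02 to 7.73 and 7.98 (4.19-fold, both probe sets). Cxcl13, which attracts B cells through CXCR5, went from 3.72 and 3.39 to 6.80 and 6.75 (9.31-fold, and 0.36 in log2 fold change on its other probe set). For each of the 3 genes the 2 arrays of a group lay close together. Of the 20 tested in the chemokine list, in which Cxcl13 was not placed, 2 fell past limma (0.782% of all genes) and none rose. By the array-pair rule 4 were higher and 5 lower (5.15% and 2.93% of all genes), and the median was 0.09. Cxcl9 (6.08 and 7.67 against 4.58 and 4.77) and Cxcl10 (7.17 and 8.37 against 5.67 and 6.49), both induced by interferon, were lower by the array-pair rule, as was the membrane-bound Cx3cl1 (7.79 and 7.40 against 6.44 and 6.52). The other Cx3cl1 probe set differed by -0.32 in log2 fold change. Ccl3 (2.63 and 2.84 against 4.05 and 5.05) and Ccl8 (5.1 and 6.07 against 6.80 and 8.03), typical of macrophages, were higher.
The promoters of the 3 chemokine genes that passed the threshold are shown in the same way, at chr4:41774127-41774426 (Ccl27a, minus strand, the only one of its 3 annotated starts with the motif), chr13:56296502-56296801 (Cxcl14, minus strand) and chr5:95956689-95956988 (Cxcl13, plus strand). Capitals mark AGGTCA or its complement TGACCT, which starts at -238, -130 and -87.
Ccl27a: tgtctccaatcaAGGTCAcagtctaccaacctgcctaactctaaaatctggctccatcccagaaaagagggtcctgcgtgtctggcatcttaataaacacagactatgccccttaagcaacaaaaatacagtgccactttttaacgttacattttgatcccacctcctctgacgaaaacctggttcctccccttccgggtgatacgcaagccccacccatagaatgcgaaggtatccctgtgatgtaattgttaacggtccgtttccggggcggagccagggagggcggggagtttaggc
Cxcl14: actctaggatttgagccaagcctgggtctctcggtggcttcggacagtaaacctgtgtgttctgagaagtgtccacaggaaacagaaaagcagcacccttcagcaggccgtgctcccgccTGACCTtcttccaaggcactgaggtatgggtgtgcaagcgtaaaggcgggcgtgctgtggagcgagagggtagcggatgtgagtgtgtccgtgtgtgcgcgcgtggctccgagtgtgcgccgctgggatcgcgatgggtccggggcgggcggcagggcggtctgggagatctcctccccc
Cxcl13: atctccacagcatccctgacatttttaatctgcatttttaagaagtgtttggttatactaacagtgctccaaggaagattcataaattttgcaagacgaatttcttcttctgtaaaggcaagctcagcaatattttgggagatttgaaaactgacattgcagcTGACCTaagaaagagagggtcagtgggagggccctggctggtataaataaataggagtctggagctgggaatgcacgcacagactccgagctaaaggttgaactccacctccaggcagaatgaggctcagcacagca

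Among interleukins and TNF family genes, 1 of 27 rose and 1 fell past limma (1.32% and 0.782% of all genes). By the array-pair rule 5 were higher and 3 lower (5.15% and 2.93% of all genes), and the median was 0.26. Il1a, an alarmin stored in keratinocytes, fell from 5.78 and 5.79 to 4.62 and 4.59 (2.27-fold). Il18, a cytokine of the same family, rose from 3.11 and 3.41 to 4.54 and 4.52 (2.42-fold). Il1b, the inflammatory member made by myeloid cells, was 3.19 and 3.21 against 5.4 and 7.20 (limma adjusted p = 0.0748), with GOF replicate 2 well above GOF replicate 1. Il24, a cytokine of the IL-10 family, was 9.58 and 9.69 against 8.69 and 8.75, and Osmr, the oncostatin M receptor, 7.70 and 8.54 against 6.84 and 7.03. The 3 Osmr probe sets ranged from -1.18 to -0.19 in log2 fold change. The interferon response list gave 1 rise in 27 (median 0.03), Oasl1, from 3.18 and 3.07 to 4.46 and 4.70. In that list control replicate 2 lay below control replicate 1 in 2 genes only, and GOF replicate 2 above GOF replicate 1 in 23. Class I presentation genes gave no call among 9 by either rule (median -0.20).

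Genes of macrophages, of antigen-presenting cells and of blood vessels rose in the Epcam-sorted GOF cells. Of 19 macrophage and monocyte markers tested, 6 passed limma upward (1.32% of all genes) and none fell. By the array-pair rule 16 were higher (5.15% of all genes), and the median was 2.40. The mean of the list was 3.19 and 3.11 on the control arrays, close to background, and 5.16 and 6.26 on the GOF arrays, and GOF replicate 2 lay above GOF replicate 1 in 17 of the 19. The log2 of the summed level of the list was 7.49 and 7.41 against 9.97 and 11.11. Besides Lyz2, the lysosomal protease gene Ctss went from 2.99 and 2.80 to 6.82 and 8.05 (at least 19.8-fold). Ms4a6d went from 2.16 and 2.84 to 6.42 and 7.44 (at least 14-fold; its 3 probe sets ranged from 0.23 to 4.43). C1qc, a chain of complement C1q, went from 3.41 and 3.33 to 6.72 and 7.95 (15.6-fold). Tyrobp, the adaptor DAP12, went from 3.13 and 3.23 to 6.45 and 7.45 (13.6-fold), and the lysosomal glycoprotein gene Cd68 from 3.76 and 3.51 to 5.67 and 6.39 (5.26-fold). Among further leukocyte genes outside the list, Srgn (21.3-fold), Lilrb4a (at least 13.2-fold), the tetraspanin gene Cd53 (at least 13.4-fold; -0.05 in log2 fold change on its other probe set) and the complement receptor gene C5ar1 (11.3-fold) rose. Some defining markers did not: the growth factor receptor Csf1r was 3.47 and 3.62 against 3.75 and 3.50, and Itgam, Fcgr1 and Cd163 were at background.

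Genes of class II antigen presentation rose as well. Of 7 dendritic and Langerhans cell markers tested, 3 rose past limma (against 1.32% of all genes). By the array-pair rule 5 were higher (5.15% of all genes), and the median was 2.08. H2-Eb1 went from 5.64 and 6.15 to 8.68 and 9.64 (9.64-fold) and H2-Ab1 from 6.01 and 6.28 to 8.91 and 9.85 (9.40-fold). Cd74, the invariant chain, went from 3.88 and 4.19 to 6.58 and 7.62 (8.34-fold). Cd207 (langerin), which marks Langerhans cells, was 3.39 and 3.45 against 4.06 and 4.42 and did not pass, and Itgax, Flt3 and Xcr1 were at background. The list's mean was 4.65 and 4.93 against 6.33 and 6.98. Of 3 neutrophil and mast cell markers tested, the mast cell chymase Cma1 rose from 3.74 and 3.90 to 5.25 and 5.07, and the other 10 with a probe set were at background. No T, B or NK cell marker passed among 7 tested (median 0.12), and the T cell receptor genes Cd3d, Cd3e and Cd3g were at background.

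Of 18 endothelial markers tested, 9 rose past limma (against 1.32% of all genes) and none fell. By the array-pair rule 15 were higher (5.15% of all genes), and the median was 1.51. The list's mean was 3.38 and 3.27 on the controls and 5.0 and 5.1 on the GOF arrays, with a log2 summed level of 7.64 and 7.52 against 9.69 and 9.76. The junction genes Cdh5 (3.98 and 3.27 to 6.56 and 6.87, 8.52-fold) and Pecam1 (3.27 and 3.72 to 5.30 and 6.01, 4.47-fold) rose. So did the VEGF receptor gene Kdr (3.27 and 2.71 to 4.73 and 4.74, 3.35-fold) and the diaphragm protein gene Plvap (3.39 and 3.21 to 5.77 and 5.67, 5.35-fold). Emcn, a sialomucin of venous and capillary endothelium, went from 3.19 and 3.15 to 6.07 and 6.42 (8.44-fold), Apold1 from 2.73 and 3.15 to 6.75 and 6.66 (13.6-fold) and Ctla2a from 4.01 and 3.28 to 7.32 and 7.22 (12.3-fold). Of the lymphatic markers, Lyve1 was level at 3.63 and 3.60 against 3.63 and 3.67, and Prox1 was at background. Flt4, the receptor for VEGF-C, was 3.16 and 3.1 against 3.66 and 3.57, with both GOF arrays above both controls, and did not pass (limma adjusted p = 0.187).

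Of 7 pericyte and smooth muscle markers, Rgs5 alone rose past limma (1.32% of all genes), and the median was 0.63. Notch3, also carried by pericytes, was 8.68 and 7.88 against 8.48 and 8.55. Of the fibroblast markers with a probe set, 3 were at background. The 14 tested were bright on average and gave no call by limma or the array-pair rule (3 were higher at an unadjusted p under 0.05, against 12.8% of all genes), with a median of 0.82. Their mean was 8.39 and 6.99 on the controls against 8.43 and 8.72 in GOF, and all 14 were lower on control replicate 2 than on replicate 1. Col1a1 was 11.42 and 10.59 against 11.43 and 11.77, and Lum 6.64 and 3.50 against 6.97 and 7.39. Fabp4, a lipid-binding protein of fat and capillaries, was 9.82 and 7.28 against 10.60 and 10.88, and the other 2 of 3 skeletal muscle and adipocyte markers tested were close to background. None of 5 melanocyte markers passed (median -0.28), and Tyr and Mlana were at background.

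**Figure D5:**
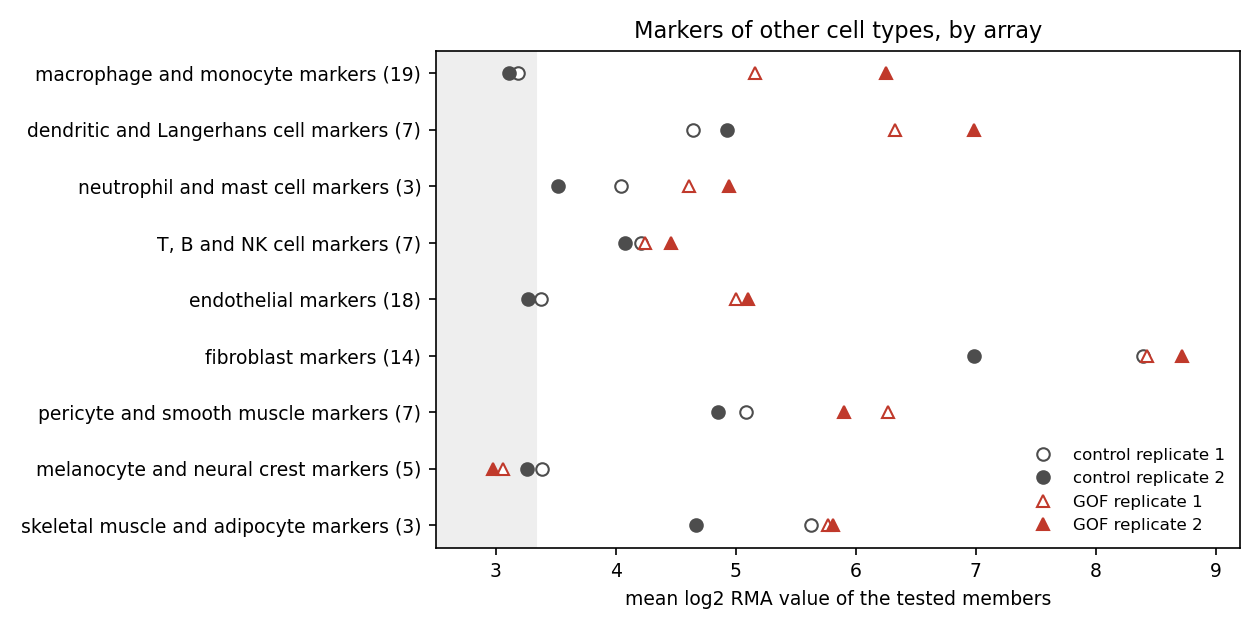
The mean log2 RMA value of the tested members of each marker list is shown for every array (circles control, triangles GOF, open replicate 1, filled replicate 2); the number tested stands after each name, and grey marks values up to the highest array background, 3.33. The macrophage and endothelial lists lie between 3.11 and 3.38 on the controls, close to background, and between 5.0 and 6.26 on the GOF arrays, while the fibroblast list stands out for control replicate 2, at 6.99.

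These arrays read bulk RNA of a sorted population, so fewer cells of a type and less RNA per cell cannot be told apart. The part of other cell types in the epithelial results was not tested. The fall of Epcam, Krt15 or the hemidesmosome genes stood beside level Krt5 and Krt14 and beside the rise of macrophage and endothelial markers on the same 2 GOF arrays. Of the called genes with several probe sets, all probe sets moved the same way in 47 of 52 that rose and 43 of 50 that fell, and all passed 1.5-fold in 30 and 21.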

How the data were processed

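RNA of Epcam-sorted papilloma cells was read on 1-colour Affymetrix mouse PM strip arrays. The authors deposited log2 values made with RMA, per the labels' protocols; the submitters' processing notes name RMA and affy without versions, and a genome build is not given in the sources used here. Per the file headers, columns carry sample accessions, and groups and replicate numbers come from the titles.

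The table held 45141 probe sets. Of these, 28898 had a single gene in the platform annotation, 551 several and 15588 none, and 28689 were matched to RefSeq names (GRCm38.p6). Each gene was read on its brightest single-gene probe set, and kept when at least 2 of the 4 papilloma arrays exceeded their background, the highest of 44 non-mouse controls. This left 10869 of 17097 genes. The fit of these genes to the 4 arrays used limma 3.58.1 under R 4.3.3 (residual degrees of freedom 2, prior 3.18), with Benjamini-Hochberg adjustment over all genes. The fit was tested on simulated data. A fold is written "at least" where neither array of the dimmer group exceeded background, and is then taken from that background. With 2 arrays a group, no exact permutation test can pass, and the number of arrays limits precision.

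The comparison and the 47 gene lists were chosen with earlier results of these data known, so a list's direction is described by counts and medians, with no test. Genes are named by a rule: up to 15 per direction by size, 15 by smallest pair difference, list members called or apart in all 4 array pairs, and pathway-defining members; 171 met its counted parts. Alternatives covered the filter, probe set choice, scaling, variance prior, all 8 arrays, replicate numbers and left-out arrays. The carcinoma arrays were otherwise not used here.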

Additional observations from a re-analysis of the deposited data

How the results depend on the processing

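The 229 genes past limma's threshold became 150 with no filter on low values (17097 genes tested), 474 with a trended and robust variance prior, 662 at an adjusted p of 0.10, and from 1 to 953 when 1 array was left out. The 879 genes that met the array-pair rule became 330 at 2-fold, 5748 with any difference of the same sign, and 1312 to 2133 when 1 array was left out, as fewer pairs then had to agree. Quantile scaling gave 180 limma calls, all but 1 of them among the 229, and all 8 arrays gave 224, of which 152 were the same genes. With the replicate number as a block, Nr2f2 alone passed (1 call, 2083 genes at an unadjusted p under 0.05). Across genes, the differences between replicates 1 and 2 correlated at -0.01 between the groups. This value cannot show whether arrays with the same number in their titles were handled together. With an array left out, the lone array of its group is assumed to vary like the other group.

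The Nr2f2 difference, 8.78, passed under every alternative run; it was 2.49 with the mean of its probe sets, and 8.66 to 8.90 with an array left out. Of the 72 other named genes past the threshold, every one tested kept its call with the stricter filter (68), without probe sets marked as reading several transcripts (55), with median centring, with the trended prior and without control replicate 1. The call ended for 19 with no filter, 17 with all 8 arrays, 9 with quantile scaling, 6 with the mean of a gene's probe sets and 3 without control replicate 2, and the cause was not tested. No named gene past the threshold changed direction under these alternatives. The median of a list kept its sign under all 10 alternatives with values of their own for 33 of the 47 lists. The exceptions were lists whose medians were at most 0.22 in size, among them the interferon response (-0.43 to 0.60), and the simple keratins, whose median of 0.87 was -0.01 with no filter on low values.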
